A study of Mus musculus with 4 samples.

Results

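The homologous recombination and DNA damage genes are 34 mouse genes chosen by symbol from a list of proteins that sense broken DNA or stalled replication forks and repair them. All 34 symbols were present once in each library, among the 27998 genes that the 4 libraries share. They were followed in single-cell RNA-seq of the mammary gland of female mice of mixed background. These mice carried Trp53L/L and Brca1L/L alleles and R26Y, a YFP reporter that Cre switches on, and Cre came from Ad-K8-Cre, an adenovirus with the keratin 8 promoter given into the milk ducts. The labels call every library Trp53/Brca1-null, so no library with intact genes served as a control. The 2 weeks library held sorted YFP+ mammary epithelial cells taken about 2 weeks after injection. The 5 months library held YFP+ epithelial cells together with CD45+ leukocytes taken about 5 months after injection. The tumour 1 and tumour 2 libraries held live, DAPI-negative cells of tumour masses, and many of these cells carried RNA of the leukocyte gene Ptprc. The number of mice behind a library and the ages of the mice are not given in the sources used here. Only the tumours are replicates (n = 2), and nothing says whether they came from separate animals, so p-values measure only the spread between these samples.

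In homologous recombination, a double-strand break is cut back to single-stranded DNA by the Mre11a, Rad50 and Nbn complex with Exo1, the replication protein A subunits Rpa1 to Rpa3 coat that strand, and Brca1, Bard1, Palb2 and Brca2 help start the search for a matching strand. The kinases Atm and Atr signal the damage through Chek2 and Chek1, while Fanconi anaemia proteins handle crosslinked DNA. The Ku proteins Xrcc5 and Xrcc6 with the ligase Lig4 join ends without a template, and Polq does so with short matching stretches. Recombination copies from the sister DNA molecule and is therefore known as a pathway of dividing cells, whereas end joining works throughout the cell cycle. Loss of BRCA1 is a known cause of breast cancer through failing recombination.

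Barcodes counted as cells when 500 or more genes were detected and mitochondrial genes gave no more than 10% of the counts. Epithelial cells were taken as cells with at least 3 unique molecular identifiers (UMIs, one per captured RNA molecule) of the luminal keratins Krt8 and Krt18 together and none of Ptprc, which encodes CD45. This keratin gate held 1133 cells at 2 weeks, 431 at 5 months, 397 in tumour 1 and 415 in tumour 2. The leukocyte gate, cells with at least 1 Ptprc UMI, held 7, 2348, 1518 and 733 cells in the same order. A cell was called cycling when it had at least 1 UMI of Top2a or Mki67, proteins of dividing cells, and non-cycling when it had none. The keratin gate held 336, 10, 109 and 34 cycling cells, of which 102, 9, 38 and 21 had exactly 1 such UMI, so the class is a range and not a cell type. Cycling cells were deeper, with median UMI counts of 6353.5, 8033.5, 22036 and 14863.5 against 3571, 4516, 13417.5 and 7985 in non-cycling cells. UMI counts were summed per library and class, and levels are given as CPM, the UMIs of a gene scaled by the total of that sum.

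The gate used Krt8 and Krt18, which are among the 7 epithelial markers, so their detection is fixed by it. All 7 were detected in the keratin gate of every library, and the 7 together had a summed level of 12535 CPM at 2 weeks and 12020 at 5 months, but 3784 in tumour 1 and 5944 in tumour 2. The 9 leukocyte markers summed to 3.20 CPM at 2 weeks, where Tyrobp and Cd79a were at 0, and to 200, 550 and 383 CPM in the 3 later libraries, against 6198 to 23517 CPM in the leukocyte gate of those libraries. No leukocyte marker was at 0 in the keratin gate of the later libraries, and the part of this RNA in the results was not tested except where an alternative gate is named. The 5 fibroblast markers summed to 226, 57.5, 229 and 14.7 CPM in the keratin gate of the 4 libraries, with Col1a1, Col3a1 and Pdgfra at 0 at 2 weeks, Pdgfra at 0 at 5 months and none at 0 in the tumours. A stricter gate without 5 abundant leukocyte genes kept 1126 and 323 cells at 2 weeks and 5 months but only 21 in tumour 1 and 138 in tumour 2. Pairs of libraries shared between 2 and 16 cell barcodes.

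Promoter sequence is shown here because many members were higher together in dividing cells in the results that follow, and E2F factors and the CCAAT and CHR elements are known from genes of the cell cycle. RefSeq promoter windows (GRCm38.p6, 250 bases before to 50 bases after the gene start) were available for 27 of the 34 members. The E2F-type motif was searched on either strand as TTCCCGC, as the variant TTCGCGC, as the variant TTGCCGC and as the variant TTGGCGC. At least 1 of these was in the windows of 17 of those 27 members (63.0%) and in 9.57% of 32851 promoter windows. The CCAAT box (CCAAT, either strand) was in 17 of 27 members (63.0%) and 37.4% of all windows, and the CHR element (TTTGAA, either strand), known from genes of mitosis, in 2 of 27 (7.41%) against 17.9%. The E2F-type and CHR motifs do not overlap in the stretches printed. Stretches upstream of the first exon are printed 5′ to 3′ on the gene's strand, with matches to these letters on either strand in capitals. Rpa2 (chr4:132768182-132768331 (plus strand)), Blm (chr7:80535120-80535248 (minus strand)) and Bard1 (chr1:71103147-71103222 (minus strand)) stand for members that were higher in cycling cells (Bard1 in the fit without the 5 months library) and hold an E2F-type match. Brca1 (chr11:101551956-101552105 (minus strand)) is the targeted gene. Parp1 (chr1:180568741-180568890 (plus strand)) and Trp53bp1 (chr2:121271408-121271557 (minus strand)) had no match to any of the letters in their windows. Parp1 was nevertheless higher in cycling cells in the fit without the 5 months library. Timeless, higher in the fit over 4 libraries, had no match either, and Rpa1 and Mre11a, also higher there, had no E2F-type match.
Rpa2: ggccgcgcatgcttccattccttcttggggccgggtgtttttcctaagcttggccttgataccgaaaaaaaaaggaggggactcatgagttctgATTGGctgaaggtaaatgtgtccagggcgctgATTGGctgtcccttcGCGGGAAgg
Blm: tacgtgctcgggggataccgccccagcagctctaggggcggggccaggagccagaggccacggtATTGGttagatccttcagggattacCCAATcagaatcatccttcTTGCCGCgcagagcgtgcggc
Bard1: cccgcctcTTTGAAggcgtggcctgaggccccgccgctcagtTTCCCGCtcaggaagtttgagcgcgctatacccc
Brca1: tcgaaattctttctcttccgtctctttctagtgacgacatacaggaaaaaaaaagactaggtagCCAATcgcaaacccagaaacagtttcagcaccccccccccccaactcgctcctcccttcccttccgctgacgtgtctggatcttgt
Parp1: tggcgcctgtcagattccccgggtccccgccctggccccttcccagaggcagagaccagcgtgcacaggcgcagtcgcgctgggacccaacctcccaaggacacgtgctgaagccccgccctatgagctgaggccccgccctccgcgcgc
Trp53bp1: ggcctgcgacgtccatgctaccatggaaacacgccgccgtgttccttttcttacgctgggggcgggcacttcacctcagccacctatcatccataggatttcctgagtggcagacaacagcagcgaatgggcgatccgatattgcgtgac
The Rpa2 stretch holds 1 E2F-type match (read on the opposite strand) beside a pair of CCAAT boxes, the Blm stretch likewise 1 beside a pair, the Bard1 stretch 1 E2F-type and 1 CHR match, and the Brca1 stretch 1 CCAAT box. The Brca1 window also holds 1 E2F-type match after the gene start, outside the stretch printed. Of the 12 members higher in cycling keratin-gated cells, 8 had a window, with an E2F-type match in 5 and a CCAAT box in 7. Of the 7 tested members that did not pass, 6 had a window, with an E2F-type match in 2 and a CCAAT box in 3. Of the 15 members not tested, 13 had a window, with an E2F-type match in 10 and a CCAAT box in 7. Whether matches go with the calls was not tested. A match is a description of letters and not evidence that a factor binds there.

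The first question was which members differ between cycling and non-cycling epithelial cells of the same library. In the keratin gate, 12 of the 34 members were higher in cycling cells and none was lower, among 19 with enough counts to be tested (edgeR quasi-likelihood test, library as block, adjusted p under 0.05 over 9572 genes). Of all genes tested, 3.97% were called higher. The 15 members that were not tested had too few counts, above all in the 5 months library, whose 10 cycling cells held 101627 UMIs. Without that library, 18 members were higher of 26 tested, and 4.65% of 10197 genes were. With no filter on low counts all 34 members entered, 18 were higher and none lower, and 2.68% of 17789 genes were higher. The median log2 difference over the 34 members was then 1.55, and over all genes -0.12. The number of members called was 10 (of 20 tested) without tumour 1, 9 (of 19) without tumour 2 and 7 (of 18) without the 2 weeks library. In those fits 269 of 9538, 356 of 9634 and 224 of 9503 genes were higher. The number of members was 2 (of 4 tested) with the stricter gate, 2 (of 5 tested) in cells thinned to equal depth and 0 when the library was not kept as a block. There 65 of 5409, 51 of 4638 and 22 of 9572 genes were higher. Of all genes called, 58.4% were higher, against 73.9% with DESeq2 and 75.0% when library totals replaced the TMM scaling, and all members called stayed on the higher side.

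**Figure D1:**
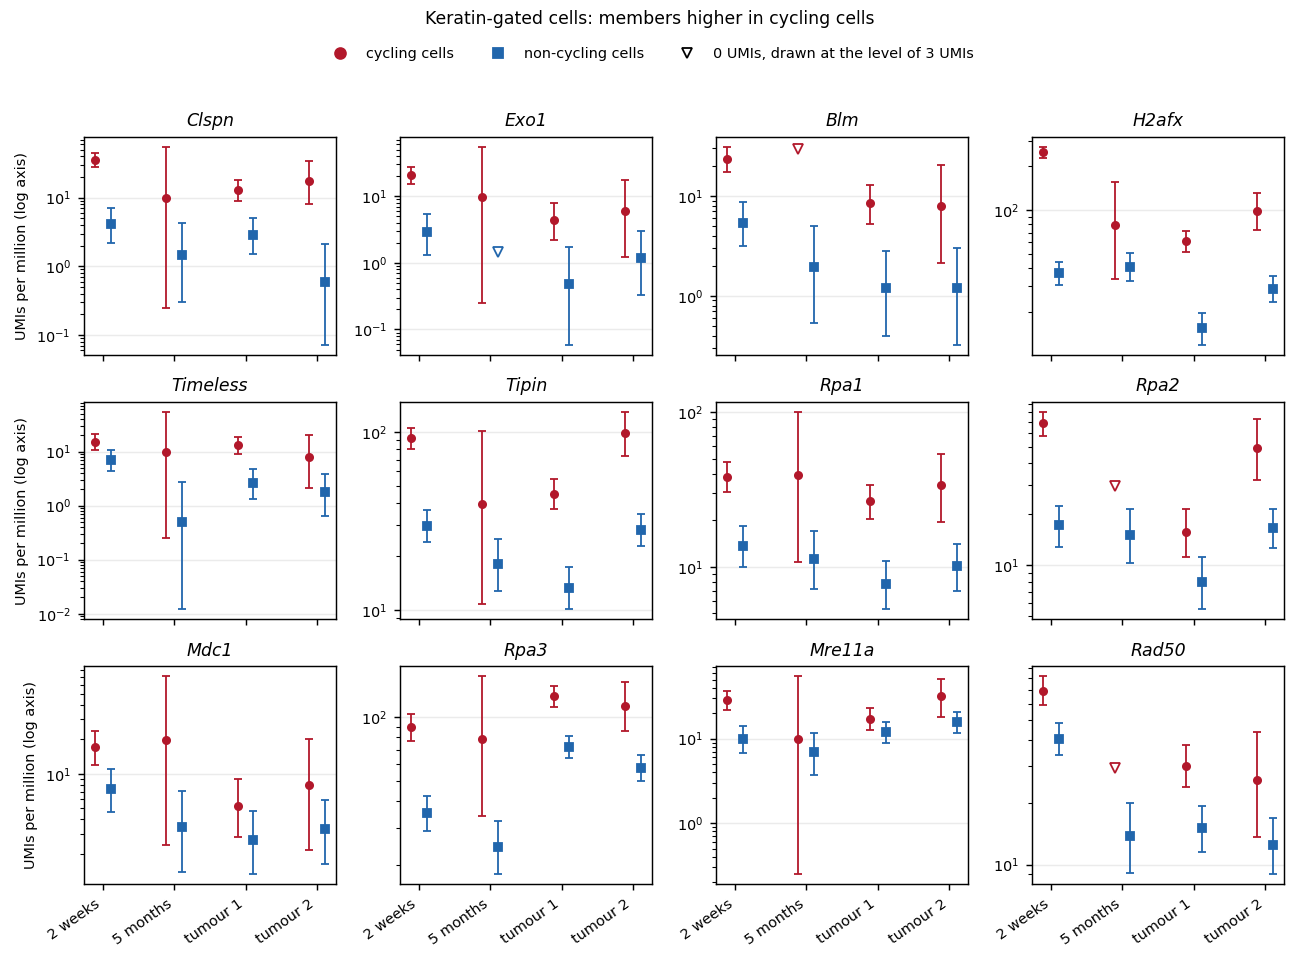
CPM (log axis) of the 12 members higher in cycling cells, in cycling (red circles) and non-cycling (blue squares) keratin-gated cells of each library; bars are exact 95% Poisson intervals for counting error, and open triangles mark 0 UMIs, drawn at the level 3 UMIs would give. Red points lie above blue points in every library for Clspn, Exo1, H2afx, Timeless, Tipin, Rpa1, Rpa3, Mdc1 and Mre11a, while Blm, Rpa2 and Rad50 had no UMI in the 10 cycling cells of the 5 months library. In those cells 32 of the 34 members had under 5 UMIs, and the red points of Clspn, Exo1, Timeless and Mre11a are 1 UMI each.

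Of the 7 replication fork and checkpoint genes, 5 were tested and 3 were higher in cycling cells. Clspn encodes claspin, the adaptor that lets Atr activate Chek1. Clspn had 35.5, 9.84, 12.9 and 17.8 CPM in cycling cells of the 2 weeks, 5 months, tumour 1 and tumour 2 libraries, and 4.14, 1.47, 2.91 and 0.595 in non-cycling cells. The log2 difference was 2.87 ± 0.37 (SE; edgeR adjusted p = 9.76e-06). Here and throughout, the SE is approximate: the size of the log2 difference divided by the square root of the edgeR F statistic. The lowest cycling value was above the highest non-cycling one, but Clspn passed the low-count filter only through its cycling sums, which fixes this. Tipin and Timeless form the complex that holds a stalled fork together. Tipin had 92.3, 39.4, 45.0 and 98.9 CPM in cycling cells and 29.6, 18.2, 13.3 and 28.3 in non-cycling cells, with no overlap. Its log2 difference was 1.60 ± 0.18 (adjusted p = 1.46e-06). Timeless had 15.2, 9.84, 13.3 and 7.91 CPM against 7.01, 0.491, 2.67 and 1.79, a log2 difference of 1.70 ± 0.37 (adjusted p = 0.0047), and its call was lost without tumour 1. The lone 5 months values of Clspn and Timeless in cycling cells rest on 1 UMI each.

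None of the kinases passed in the fit over 4 libraries. Atr and Atm, which start the signal, did not pass the test, with log2 differences of 0.08 ± 0.37 and -0.25 ± 0.35 (adjusted p = 0.94 and 0.78). Atr had 18.5, 0, 3.62 and 15.8 CPM in cycling and 13.7, 4.42, 7.75 and 5.95 in non-cycling cells, so the 4 libraries did not point one way. Chek1, the kinase that Atr activates, was tested only without the 5 months library and was then higher by 1.53 ± 0.43 (adjusted p = 0.044). Its level was 18.0, 9.84, 3.62 and 9.89 CPM in cycling and 3.51, 0.982, 2.42 and 3.87 CPM in non-cycling cells. Chek2, the kinase of the Atm branch, entered only with no filter and did not pass, at 1.34 ± 0.52 (adjusted p = 0.14).

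All 3 subunits of replication protein A were higher in cycling cells. Rpa1, the large DNA-binding subunit, had 38.3, 39.4, 26.5 and 33.6 CPM in cycling and 13.7, 11.3, 7.75 and 10.1 CPM in non-cycling cells, with no overlap and a log2 difference of 1.57 ± 0.24 (adjusted p = 6.57e-05). Rpa2, the subunit phosphorylated after damage, had 68.7, 0, 15.7 and 49.4 CPM against 17.2, 15.2, 7.996 and 16.7 CPM. Its log2 difference was 1.37 ± 0.28 (adjusted p = 0.0025), and the 0 at 5 months allows up to 29.5 CPM, the level of 3 UMIs. Rpa2 lost its call without the 2 weeks library and with DESeq2. Rpa3, the small subunit, had 89.5, 78.7, 125.0 and 112.7 CPM against 35.4, 24.5, 72.2 and 57.7 CPM. That is a log2 difference of 0.99 ± 0.17 (adjusted p = 0.00036), and the tumours were above 2 weeks and 5 months in both classes.

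Among the genes of end resection and of undoing joined DNA strands, 4 of 5 were higher. Exo1, a nuclease that trims break ends, had 20.8, 9.84, 4.42 and 5.93 CPM in cycling and 2.87, 0, 0.485 and 1.19 CPM in non-cycling cells. The log2 difference was 2.84 ± 0.47 (adjusted p = 0.00021). The cycling values did not overlap the others, but Exo1 passed the low-count filter only through its cycling sums, which fixes this. Blm, the helicase mutated in Bloom syndrome, had 23.5, 0, 8.44 and 7.91 CPM against 5.42, 1.96, 1.21 and 1.19 CPM, with a log2 difference of 2.22 ± 0.39 (adjusted p = 0.00044). Both genes had at most 1 UMI in cycling cells at 5 months. Mre11a and Rad50, partners in one complex, differed less. Mre11a had 28.6, 9.84, 17.3 and 31.6 CPM against 9.88, 6.87, 11.9 and 15.8 CPM (0.93 ± 0.27, adjusted p = 0.036), and Rad50 had 69.7, 0, 30.2 and 25.7 CPM against 40.8, 13.7, 15.02 and 12.5 CPM (0.76 ± 0.23, adjusted p = 0.047). Their calls were lost in 5 of 12 and 7 of 13 alternatives. Nbn, the third subunit, did not pass at 0.74 ± 0.34 (adjusted p = 0.23).

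The chromatin genes split. H2afx encodes the histone H2A.X, whose phosphorylated form marks breaks. H2afx had 249.1, 78.7, 61.1 and 98.9 CPM in cycling cells and 37.0, 40.7, 15.5 and 28.9 CPM in non-cycling cells. Cycling and non-cycling values did not overlap, and at 1.99 ± 0.22 (adjusted p = 9.70e-07) it had the smallest adjusted p of the members tested in this fit. The fold was 6.74 at 2 weeks (95% Poisson interval 5.51 to 8.31) but 1.93 at 5 months (0.808 to 3.99). Mdc1, which binds that mark, had 17.1, 19.7, 5.23 and 7.91 CPM against 7.33, 3.44, 2.67 and 3.27 CPM. Its log2 difference of 1.17 ± 0.36 passed narrowly (adjusted p = 0.04961) and the call was lost in 10 of 11 alternatives. Trp53bp1 encodes 53BP1, which protects break ends from resection. It had 9.23, 19.7, 12.5 and 9.89 CPM in cycling and 22.9, 11.8, 9.93 and 9.52 CPM in non-cycling cells and did not pass (-0.42 ± 0.32, adjusted p = 0.55).

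Recombination mediators were too scarce for the fit on 4 libraries, where none of the 7 was tested. None of Brca1, Brca2, Bard1, Palb2, Rad51ap1 and Rad54l had a UMI in the 10 cycling cells of the 5 months library. Without that library 5 of the 7 were tested and all 5 were higher, and with no filter on low counts 6 of the 7 were. The filter can admit a gene through its cycling sums alone, as it did for Bard1, Palb2 and Rad54l. These had at most 1.91, 1.91 and 2.87 CPM in non-cycling cells. That all 5 tested were higher is therefore partly set by the filter. Rad51ap1, which helps DNA strands pair, had 26.8, 15.7 and 19.8 CPM in cycling cells at 2 weeks, tumour 1 and tumour 2 and 3.82, 1.21 and 2.38 CPM in non-cycling cells. These values did not overlap, and the log2 difference was 3.04 ± 0.34 (adjusted p = 2.9e-05). Bard1, the partner of Brca1, differed by 2.83 ± 0.53 (adjusted p = 0.0030), and Rad54l, a motor protein of strand exchange, by 2.76 ± 0.38 (adjusted p = 0.00020). Brca2 and Palb2, which bind each other, differed by 2.34 ± 0.36 and 2.25 ± 0.50 (adjusted p = 0.00050 and 0.013). Xrcc2, another recombination gene, had 13 UMIs or fewer in any library and did not pass with no filter (0.43 ± 0.77). The 4 Fanconi genes Fanca, Fancb, Fancd2 and Fanci had 25 UMIs or fewer in the keratin gate of any library. They entered only with no filter, where their log2 differences of 2.00 to 2.57 did not pass.

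Brca1, one of the genes targeted by Cre, had 17, 0, 7 and 4 UMIs in cycling cells and 5, 2, 1 and 1 in non-cycling cells of the 4 libraries. That is 7.84, 0, 2.81 and 7.91 CPM against 1.59, 0.982, 0.242 and 0.298 CPM, with a log2 difference of 2.70 ± 0.70 in the fit with no filter (adjusted p = 0.0038). The other target, Trp53, encodes the p53 tumour suppressor. Trp53 had 54.9, 59.0, 9.65 and 45.5 CPM in cycling and 57.1, 35.8, 9.93 and 52.7 CPM in non-cycling keratin-gated cells, so tumour 1 lay below the other libraries in both classes. In the leukocyte gate Trp53 was also lowest in tumour 1, at 27.9 CPM against 132.0 at 5 months and 64.2 in tumour 2. The deleted parts of Brca1 and Trp53 were not placed relative to the 3′ ends that were counted, so these levels check nothing about deletion.

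Of Parp1 and the end joining genes, 5 in all, 3 were tested in the fit over 4 libraries and none passed. Parp1, which marks breaks with poly-ADP-ribose, had 40.1, 9.84, 57.1 and 35.6 CPM in cycling and 22.9, 22.1, 38.8 and 19.0 CPM in non-cycling cells (0.57 ± 0.21, adjusted p = 0.12). It passed without the 5 months library, at 0.65 ± 0.18 (adjusted p = 0.044), and over 4 libraries when library totals replaced the TMM scaling. The Ku genes did not pass: Xrcc5 had 18.0, 9.84, 15.7 and 9.89 CPM against 11.5, 8.34, 9.21 and 12.2 CPM (0.44 ± 0.28, adjusted p = 0.44), and Xrcc6 had 20.3, 0, 14.1 and 7.91 CPM against 15.9, 10.8, 8.48 and 9.22 CPM (0.27 ± 0.30, adjusted p = 0.71). Lig4, the ligase, had 4.61, 0, 2.01 and 1.98 CPM in cycling and 2.55, 3.44, 6.06 and 6.84 CPM in non-cycling cells. Its log2 difference without the 5 months library was -0.68 ± 0.54 (adjusted p = 0.56). Polq, the polymerase of microhomology joining, had 7, 0, 2 and 0 UMIs in cycling cells and 0 in the non-cycling cells of all 4 libraries. At 2 weeks its cycling level was 3.38-fold that of 3 UMIs in the non-cycling sum. This leaves out the counting error of the 7 UMIs and is therefore no lower limit. A p that misses the threshold does not show that these genes are alike in both classes.

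The same split in leukocytes used none of these cells. The 5 months, tumour 1 and tumour 2 libraries had 166, 270 and 59 cycling cells in the leukocyte gate. There 16 of the 34 members were higher in cycling cells and none lower, among 27 tested, and 5.98% of 10305 genes were higher. Of all genes called there, 55.3% were higher, and 77.6% when library totals replaced the TMM scaling, which moved the all-gene median by 0.16 on the log2 scale and left no called member on the lower side. The count of members was 6 (of 12 tested) in cells thinned to equal depth and 2 when the library was not kept as a block. There 120 of 6414 and 59 of 10305 genes were higher. The thinned fit held only the 5 months and tumour 1 libraries, with 1 residual degree of freedom. Mre11a lost its call in 6 of 13 alternatives, Timeless in 3 of 13 and Xrcc6 in 3 of 12. The members with the largest log2 differences were Exo1 (4.46 ± 0.55), Rad51ap1 (4.06 ± 0.38), Clspn (3.86 ± 0.29), Rad54l (3.68 ± 0.46) and Brca1 (3.40 ± 0.57). Brca1 had 12.3, 8.02 and 3.38 CPM in cycling leukocytes of the 3 libraries and 0.628, 0.464 and 1.17 CPM in non-cycling ones (adjusted p = 0.0030). Its values did not overlap, but Brca1 passed the low-count filter only through its cycling sums, which fixes this. The same holds for Exo1, Rad51ap1, Rad54l, Brca2 and Chek1. These had at most 1.26, 2.04, 0.94, 2.04 and 2.2 CPM in non-cycling leukocytes. The count of 16 members, and which differences were largest, are therefore partly set by the filter. H2afx had 412.2, 102.6 and 150.4 CPM against 82.1, 17.0 and 27.2 CPM (2.31 ± 0.16, adjusted p = 6.86e-06), and Tipin had 159.1, 78.8 and 74.4 CPM against 21.5, 12.8 and 13.4 CPM (2.53 ± 0.18).

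A total of 10 members passed in both gates: Blm, Clspn, Exo1, H2afx, Mre11a, Rpa1, Rpa2, Rpa3, Timeless and Tipin. They are 10 of the 12 called in keratin-gated and 10 of the 16 called in leukocyte-gated cells, with Mre11a and Timeless losing calls under alternatives in both. Mdc1 and Rad50 passed only in the former list, and Brca1, Brca2, Chek1, Rad51ap1, Rad54l and Xrcc6 only in the latter. Of those 6, all but Xrcc6 had too few counts to be tested in the keratin gate. The overlap of calls over all genes was not counted, so the overlap of 10 members shows nothing particular to them. For scale, 14 of 14 G2 and M phase genes were higher in cycling cells of each gate. Exo1 entered both fits only through its cycling sums. Whether the effect differs between the gates was tested itself, as an interaction over the 3 libraries. None of 29 members tested passed (edgeR; 6 of 11267 genes, 0.0533%, did), and 2 had an unadjusted p under 0.05. These were Tipin, whose effect was smaller in keratin-gated cells by -0.95 ± 0.30 (adjusted p = 0.46), and H2afx (-0.74 ± 0.30, adjusted p = 0.74). DESeq2 called 0 members too, while under the stricter gate H2afx was called (-2.46, adjusted p = 0.017), as were 29 of 9095 genes. The median there was -1.43 over the 15 members tested and -0.36 over all genes. That gate left 8, 4 and 5 cycling keratin-gated cells at 5 months, in tumour 1 and in tumour 2.

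**Figure D2:**
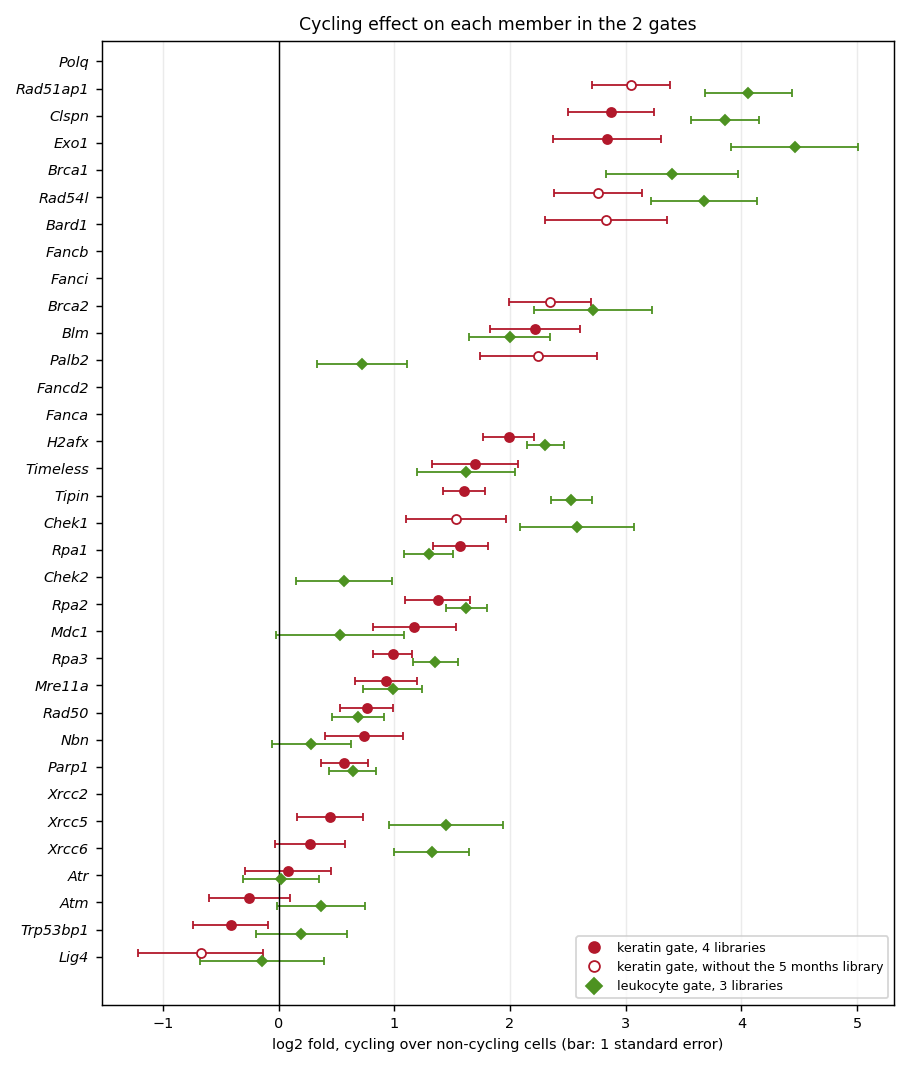
Log2 fold of cycling over non-cycling cells for each member (x axis; bars are 1 standard error), in the keratin gate with 4 libraries (filled red), in the keratin gate without the 5 months library where a member was not tested with it (open red) and in the leukocyte gate with 3 libraries (green diamonds); rows without a symbol were not tested. Clspn, Timeless, Tipin, Rpa1, Rpa2, Rpa3, Exo1, Blm and H2afx lie right of 0 in both gates, while Atr, Atm, Trp53bp1 and Lig4 lie between -0.68 and 0.36.

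Other cell properties moved with the split. Of 7 epithelial markers, 6 were lower in cycling keratin-gated cells (Cldn3 by -0.73, Cldn7 by -0.70, Krt19 by -0.68 and Krt8 by -0.63 on the log2 scale), and the basal marker Acta2 was higher (2.00). Krt8 and Krt18, both among the 6, define the gate by a fixed number of UMIs, which the deeper cycling cells reach at a lower CPM, so their values are no independent measure. None of 7 leukocyte markers tested there passed. In the leukocyte gate Lyz2 (-1.42), Fcer1g (-1.16) and Tyrobp (-1.03) were lower in cycling cells, 3 of 9 leukocyte markers. The part of these shifts in the members' differences was not tested.

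Further genes of the same pathways came from lists of genes by function. Of other recombination and Fanconi genes, the crosslink repair enzyme Ube2t (1.78) was higher in the keratin gate, and the nuclease subunit Eme1 (3.51), the helicase Brip1 (2.52) and Rmi2 (1.99), a partner of Blm, were higher in the leukocyte gate. Among 11 other checkpoint genes 2 of 9 tested were higher in the keratin gate, Topbp1 (1.41), which activates Atr, and the ubiquitin ligase Rnf168 (1.32). Of 11 other end joining and break repair genes 3 of 9 were higher, the replication ligase Lig1 (1.89), the flap nuclease Fen1 (1.28) and the end protection factor Rif1 (0.78). For scale, 15 of 15 tested S phase genes and 14 of 14 G2 and M phase genes were higher, with medians of 1.46 and 3.01. No gene of the checkpoint, end joining, S phase and G2 and M phase lists was lower in the keratin gate.

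Top2a and Mki67 are known to be most abundant late in the cell cycle. Non-cycling keratin-gated cells of the 2 weeks, tumour 1 and tumour 2 libraries were therefore split by the replication helicase genes Mcm2 to Mcm7, into cells with at least 2 UMIs of them (87, 66 and 55 cells) and the rest. Of 34 members, 15 were tested and 2 were higher in the Mcm-positive cells, Tipin (1.63 ± 0.21, adjusted p = 0.0017) and Rpa2 (1.38 ± 0.28, adjusted p = 0.027). Of all 9139 genes, 1.16% were higher. H2afx did not pass, at 0.23 ± 0.23 (adjusted p = 0.68). Mcm-positive cells were also deeper, with median UMIs of 5895, 18918.5 and 11112 against 3388, 10922.5 and 7609.5. Without tumour 2, Rpa3 (0.86) and Parp1 (0.84) passed as well. Markers moved with this split too: 4 of 7 epithelial markers were lower, among them Cldn3 (-0.59) and Epcam (-0.56), the leukocyte marker Tyrobp was lower (-0.99) and the basal marker Acta2 was higher (1.78). Of 9 G2 and M phase genes tested, 4 were higher, Cdc20 (1.87), Cdk1 (1.75), Birc5 (1.66) and Ccnb2 (1.32). Their part in the result was not tested.

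The number of members seen per cell was compared after each cell was thinned to 2000 UMIs, with the cycling class kept as assigned from unthinned counts, so that the class itself still depends on depth. A cycling keratin-gated cell showed 1.72, 0.444, 0.991 and 1.18 different members on average at 2 weeks, 5 months, tumour 1 and tumour 2. A non-cycling one showed 0.622, 0.398, 0.514 and 0.528, and the cycling value at 5 months rests on 9 cells. In the leukocyte gate the means were 2.10, 1.19 and 0.932 in cycling against 0.579, 0.424 and 0.421 in non-cycling cells of the 3 later libraries. No cell showed more than 7 of the 34 members, and thinning left out 154 keratin-gated cells at 2 weeks, 28 at 5 months and none in the tumours, and 897 leukocyte-gated cells at 5 months. The share of keratin-gated cells called cycling, with the class now assigned from the thinned counts, was 21.9% at 2 weeks, with an exact binomial 95% interval from 19.3 to 24.6%. It was 0.496% at 5 months (interval 0.06 to 1.78%), and 10.1% and 2.41% in tumours 1 and 2, with intervals of 7.30 to 13.5% and 1.16 to 4.39%. Unthinned shares were 29.7, 2.32, 27.5 and 8.19%. These intervals cover counting error only.

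**Figure D3:**
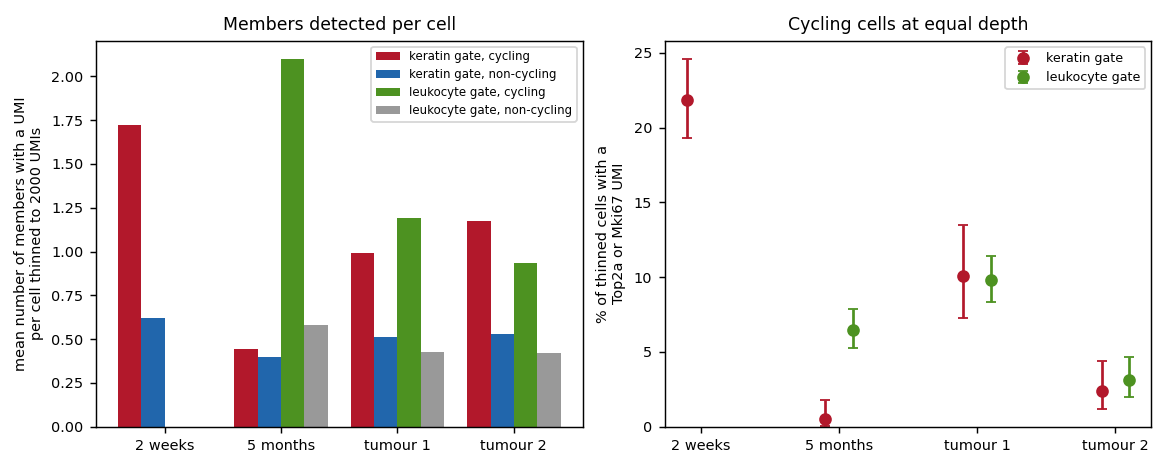
Left, mean number of the 34 members with at least 1 UMI per cell thinned to 2000 UMIs, by library, gate and class; right, percentage of thinned cells with a Top2a or Mki67 UMI, with exact 95% binomial intervals. The leukocyte gate of the 2 weeks library (7 cells) is left out, cycling bars are at 0.932 or more except in the 5 months keratin gate (9 thinned cells, 0.444), and the keratin gate runs from 21.9% cycling at 2 weeks to 0.496% at 5 months.

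Few members were called between the gates. The share of cycling cells was 2.32, 27.5 and 8.19% in keratin-gated cells at 5 months, in tumour 1 and in tumour 2. In leukocyte-gated cells it was 7.07, 17.8 and 8.05%, so a comparison of all cells is not one of lineage alone. A member that was not called is not shown to be alike in both gates. Over the 5 months, tumour 1 and tumour 2 libraries, 1 of 27 members tested differed between all keratin-gated and all leukocyte-gated cells, whereas 24.0% of 11536 genes did. That member was Clspn, at 1.87, 6.65 and 2.85 CPM in keratin-gated and 12.4, 13.4 and 5.35 CPM in leukocyte-gated cells (log2 difference -1.61 ± 0.46, adjusted p = 0.047), and the call was lost in 6 of 11 alternatives, among them without either tumour. Clspn was lower in the keratin gate in 3 of 3 libraries. Among non-cycling cells 2 of 21 members differed against 24.9% of 10829 genes. Xrcc5 was higher in keratin-gated cells, at 8.34, 9.21 and 12.2 CPM against 4.08, 1.39 and 3.28 CPM (1.64 ± 0.46, adjusted p = 0.041). Palb2 was lower there, at 0.491, 0.969 and 1.19 CPM against 6.91, 4.17 and 2.58 CPM (-2.37 ± 0.61, adjusted p = 0.031). The values of both genes did not overlap between the gates. For Palb2 this was fixed, because it passed the low-count filter only through its leukocyte-gated sums. Xrcc5 lost its call without tumour 1 (adjusted p = 0.19) and without tumour 2 (0.19), and Palb2 without the 5 months library (0.080) and without tumour 2 (0.066), while it was not tested without tumour 1.

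The next question was how the members' levels moved from 2 weeks to 5 months in keratin-gated cells. With 1 library against 1 there is no test, and a gene was counted when TMM-scaled CPM, raised by 1, lay 2-fold or more apart and the higher of the libraries reached 10 CPM. At that level 17 of the 34 members could be compared. Of these 11 were lower at 5 months and none higher, while 13.6% of 8146 genes were lower. The lower members were Rad51ap1, Rad54l, Clspn, Blm, Rad50, Atr, H2afx, Tipin, Rpa2, Mdc1 and Mre11a. Of these, only Rad50, H2afx, Tipin and Rpa2 reached 10 CPM in both libraries. The rest entered through the 2 weeks library alone, where they were high, so their count is partly set by the rule. H2afx went from 123.7 CPM (95% Poisson interval 114.4 to 133.5) to 42.5 (34.3 to 52.2), and Rad50 from 52.6 (46.6 to 59.1) to 13.1 (8.70 to 18.9). Atr went from 15.6 CPM to 4.21 and Clspn from 17.0 to 1.87. Parp1 (30.0 and 21.5 CPM), Xrcc5 (14.1 and 8.41), Xrcc6 (17.7 and 10.3) and Trp53bp1 (17.3 and 12.2) stayed within 2-fold, as did Rpa1 and Rpa3.

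The share of cycling cells differed between these libraries, so the comparison was repeated in non-cycling cells, an addition made after the data were seen. There 2 of 11 members at that level were lower, Atr and Rad50, against 12.8% of 8011 genes. Atr again reached the level at 2 weeks only. Atr had 13.7 CPM (9.92 to 18.5) at 2 weeks and 4.42 (2.02 to 8.39) at 5 months, and Rad50 had 40.8 (34.0 to 48.5) and 13.7 (9.13 to 19.9). H2afx had 37.0 and 40.7 CPM. The median log2 ratio over the members at that level was -1.19 in all cells and -0.38 in non-cycling cells, and over all genes -0.01 in both. In summed libraries, fewer cells of a kind and less RNA per cell cannot be told apart.

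**Figure D4:**
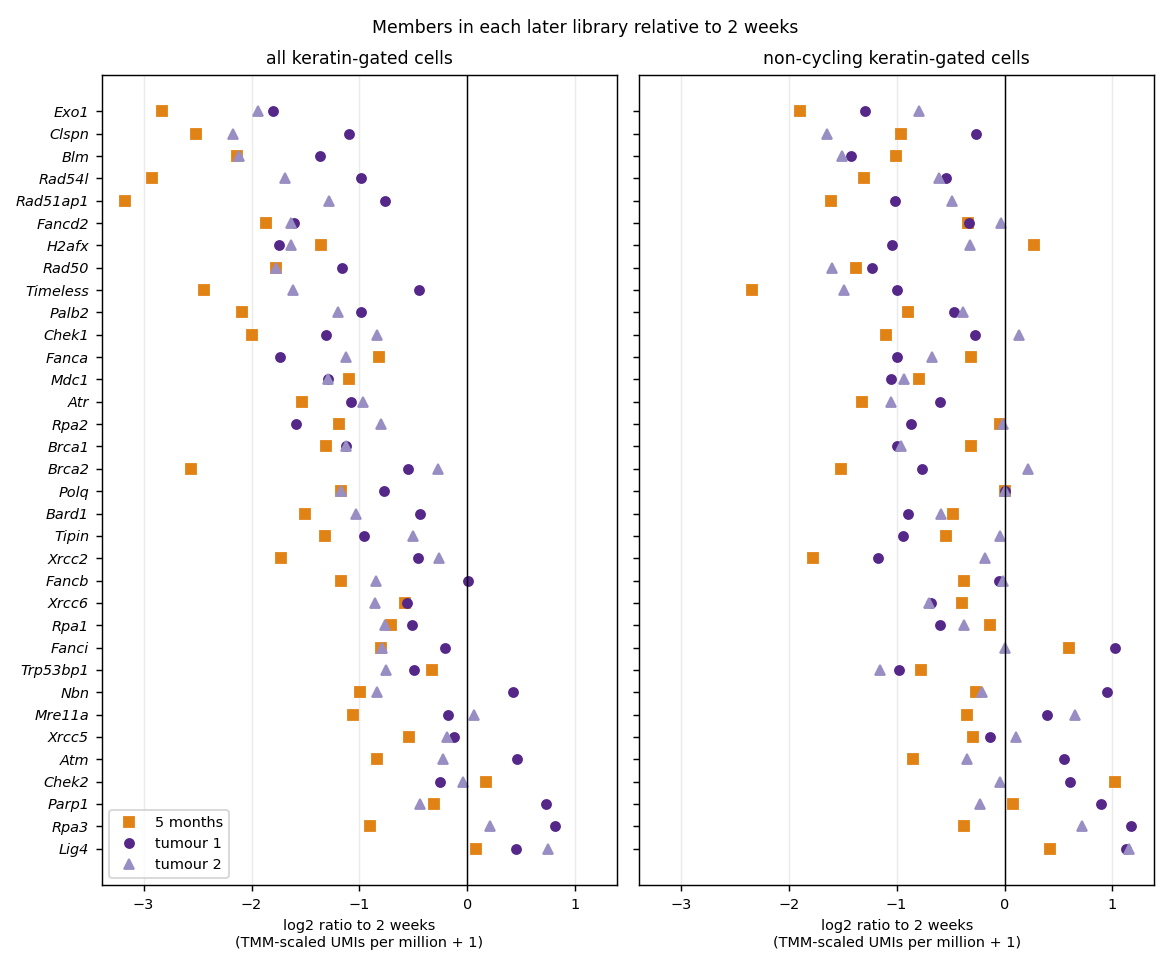
Log2 ratio of each member to the 2 weeks library (TMM-scaled CPM, plus 1; x axis) for 5 months (orange squares), tumour 1 (dark circles) and tumour 2 (light triangles), in all keratin-gated cells (left) and in non-cycling ones (right); each point is 1 library, with no test. Medians over the 34 members are -1.25, -0.66 and -0.85 on the left and -0.43, -0.60 and -0.33 on the right.

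Tumours were then compared with each earlier time. Against 2 weeks, none of 31 members tested passed, and 0.0% of 12352 genes did (edgeR, 1 residual degree of freedom). At an unadjusted p under 0.05 there were 4 members and 1883 genes, and DESeq2 called 0 members and 515 genes. The 4 members were H2afx (-1.72 ± 0.47), Exo1 (-2.31 ± 0.82), Rad50 (-1.48 ± 0.54) and Blm (-1.95 ± 0.79), with adjusted p from 0.19 to 0.32. The tumours had 32.7 and 38.0 CPM of H2afx, where the 2 weeks library had 123.7. For Exo1 the tumour levels were 1.97 and 1.81 CPM against 10.2 at 2 weeks, for Rad50 20.7 and 14.2 against 52.6, and for Blm 3.93 and 2.07 against 12.8. Both tumours lay below 2 weeks for each of these 4 genes. H2afx passed with no filter on low counts (adjusted p = 0.047), where 1262 of 17789 genes did. It also passed with the stricter gate (0.031), where 535 of 9701 genes did and tumour 1 held 21 keratin-gated cells. No other member passed in either. The median log2 difference was -1.02 over the 31 members and 0.05 over all genes. It was -0.74 over 16 S phase genes and -1.02 over 14 G2 and M phase genes, of which none passed.

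Within each class the tumour comparison called no member either. In cycling cells, 0 of 29 members tested passed against 6.55% of 10127 genes, and 3 had an unadjusted p under 0.05, H2afx (-1.57 ± 0.58, adjusted p = 0.096), Exo1 (-1.96 ± 0.88) and Fancd2 (-3.20 ± 1.46). In non-cycling cells, 0 of 23 passed against 3.28% of 11665 genes, and 1 had an unadjusted p under 0.05, Rad50 (-1.46 ± 0.59, adjusted p = 0.24). Rad50 had 40.8 CPM in non-cycling cells at 2 weeks, 13.7 at 5 months, 15.02 in tumour 1 and 12.5 in tumour 2, so the 3 later libraries lay close together below the first. Lig4 ran the other way without passing, at 2.55 and 3.44 CPM in non-cycling cells at 2 weeks and 5 months and 6.06 and 6.84 CPM in the tumours (1.42 ± 1.00, adjusted p = 0.56). DESeq2 called 0 members in both classes. Other markers differed in the same fits. In cycling cells 6 of 7 leukocyte markers tested were higher in the tumours, as were Col1a1, Col1a2 and Col3a1 of 5 fibroblast markers, and Krt19 was lower (-4.44). The summed level of the 9 leukocyte markers in cycling cells was 3.69 CPM at 2 weeks, 711 in tumour 1 and 346 in tumour 2, and that of the 5 fibroblast markers 167, 443 and 7.91 CPM. In non-cycling cells 6 of 9 leukocyte markers were higher, with sums of 2.87, 454 and 389 CPM, and Krt19 (-3.82) and Acta2 (-3.30) were lower. The part of these differences in the members' values was not tested. Against 5 months, 0 of 31 members and 0.0% of 12352 genes passed, and 1017 genes and 3 members, Rad51ap1, Brca2 and Rpa3, had an unadjusted p under 0.05. Rpa3 had 27.1 CPM at 5 months and 92.1 and 64.9 CPM in the tumours (1.48 ± 0.58, adjusted p = 0.60).

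Whether the cycling effect itself differed between tumours and 2 weeks was tested as an interaction, also added after the data were seen. None of 19 members tested passed, and 0.313% of 9572 genes did. H2afx (-0.94 ± 0.38, adjusted p = 0.74) and Trp53bp1 (1.48 ± 0.66, adjusted p = 0.98) had an unadjusted p under 0.05.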

How the data were processed

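Cell Ranger and the builds mm10 and GRCm38 are named in the submitters' processing notes, with the Cell Ranger version not given in the sources used here. Libraries were made with 10x Chromium Single Cell 3′ v2 chemistry, per the labels' protocols. The deposited values were raw UMI counts per gene and barcode, made by the authors, totalling 6722044, 15060411, 23736366 and 13061942 UMIs in 1453, 4836, 2712 and 1780 barcodes (2 weeks, 5 months, tumour 1, tumour 2). The 694 genes found in the 5 months table alone were left out.

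Counts were summed per library and cell class and tested with edgeR 4.0.16 (quasi-likelihood, TMM, filterByExpr, Benjamini-Hochberg over all genes tested, R 4.3.3). Fits between classes kept the library as a block, because both sums come from the same library. Gates with under 20 cells in either sum were left out of the leukocyte and Mcm fits, and libraries with under 50 leukocyte-gated cells out of the lineage fits. DESeq2 1.42.0, other gates, filters, scalings and leave-one-out fits were alternatives. Doublets were kept, and scores from scanpy 1.11.5 (Scrublet) served to remove 15, 181, 57 and 25 barcodes in an alternative. The scripts were tested on simulated data. Poisson and binomial intervals (95%) and limits of 3 counts cover counting error only.

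The members and gene lists were chosen with earlier results of these data known. Values per library are given for members passing the keratin cycling test, for Brca1 and Trp53, and for the end joining genes, and other members were named for their role or an unadjusted p under 0.05. Promoters are from RefSeq (GRCm38.p6). Fancd2, Tipin, Exo1, H2afx, Xrcc2, Rad50 and Nbn had no entry. Counts over the list of other recombination and Fanconi genes are not reported here.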

Additional observations from a re-analysis of the deposited data

Results flagged for a closer look

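For 2 members, picked because of this pattern, the ratio of cycling to non-cycling keratin-gated cells lay on one side of 1 at 2 weeks and on the other in both tumours, from few UMIs, and no difference passed a test. Lig4, the end joining ligase, was 1.81-fold higher in cycling cells at 2 weeks (10 UMIs against 8), but its ratio was 0.332 in tumour 1 (5 against 25) and 0.289 in tumour 2 (1 against 23). The interaction of cycling with group, a test added after the data were seen, gave -2.56 on the log2 scale for Lig4 with no filter on low counts (edgeR, adjusted p = 1). Trp53bp1, which encodes 53BP1, ran the other way, with a ratio of 0.402 at 2 weeks (20 against 72), 1.25 in tumour 1 (31 against 41) and 1.04 in tumour 2 (5 against 32). Its interaction was 1.48 (edgeR, adjusted p = 0.98). Both had an unadjusted p under 0.05 and neither passed the adjustment over all genes, while 458 of 17789 genes had such a p in the unfiltered fit that gives the Lig4 value and 398 of 9572 in the filtered fit that gives the Trp53bp1 value.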

How the results depend on the processing

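Counts of members called are given here against those of the report. For cycling against non-cycling keratin-gated cells (12 members), leaving out 1 library gave 7 to 18, the stricter gate 2 (of 4 tested), thinning to 2000 UMIs 2 (of 5 tested), and the fit without the replicate block 0, with 10 members at an unadjusted p under 0.05 in edgeR and 8 called by DESeq2 with the block. In the leukocyte gate (16), the range was 14 to 17 with 1 library left out. The count there was 6 under thinning, in a fit over 5 months and tumour 1 alone, and 2 without the replicate block. The difference between gates (0) was 1 under the stricter gate, H2afx (-2.46, adjusted p = 0.017), where 29 of 9095 genes were called. Keratin against leukocyte cells (1) gave 3 with no filter, 2 with a keratin minimum of 10 UMIs or the stricter gate, 0 with all barcodes, with the highest doublet scores removed or without the replicate block, and 0 to 3 with 1 library left out. In non-cycling cells (2) the count was 1 with the keratin minimum of 10, with doublets removed or without the replicate block, 0 with the stricter gate or thinning, and 0 to 2 with 1 library left out. Tumours against 2 weeks (0) gave 1 with no filter and 1 with the stricter gate, H2afx both times, where 1262 of 17789 and 535 of 9701 genes were called. The Mcm split (2) gave 1 with DESeq2 or a keratin minimum of 10, 0 without the replicate block, and 1 to 4 with 1 library left out, and could not be fitted with the stricter gate or thinning. The 5 months comparison (11) gave 4 at a minimum of 20 CPM and 2 in non-cycling cells alone. The cause of these shifts was not tested. Without 1 tumour the tumour fits have no residual degrees of freedom, so the median log2 ratio of TMM-scaled CPM plus 1 over all 34 members, a measure other than the fitted one, is given: from 2 weeks it was -0.81 with both tumours, -0.85 with tumour 2 alone and -0.66 with tumour 1 alone. Over all genes the number called ranged from 22 to 909 for the keratin cycling test (651 in the report), 60 to 1720 in leukocytes (1114), 0 to 101 for the difference between gates (6), 1751 to 3895 and 1525 to 3742 between lineages (2770, and 2696 in non-cycling cells), 0 to 518 for the Mcm split (175), 98 to 1262 and 13 to 548 for tumours against 2 weeks and 5 months (0 in both), and 59 to 702 and 234 to 1096 in cycling and non-cycling cells (663 and 383). With library totals in place of TMM, 2 of 6 genes called for the difference between gates were higher, against 3 of 6 in the report and 5 of 8 with DESeq2, and the share of called genes that were higher moved from 48.9% to 59.7% between lineages in non-cycling cells, where the all-gene median shifted by 0.23, and from 60.6% to 71.2% for the Mcm split (78.6% with DESeq2). Of 402 values of single members under alternatives, 321 kept their direction and side of the threshold, 81 lost their call and 0 reversed. The 10 cycling keratin-gated cells at 5 months limit the values of that class in that library.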
